A study of Mus musculus with 374 samples.

Results

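The 6 transcription factor genes described here, Tcf7, Lef1, Bcl11b, Satb1, Tox and Ets1, were chosen by name as factors of the T cell lineage, and 5 of them were measured among the 19829 mouse genes of the count table. Lef1 was not analysed here. Single cells of 5 sorted populations of 1 C57BL/6 female mouse, 10 to 13 weeks old, for which the labels name no treatment, were profiled by CEL-seq2, a plate-based method that tags the 3′ end of each mRNA molecule with a unique molecular identifier (UMI). The T_Lymph cells (43 wells) were CD3+ FSC-A low and came from the thymus, so they were thymocytes. The marrow of the same animal gave the other populations, namely B_Lymph (44 wells, B220+ FSC-A low), Grans (96 wells of granulocytes, Mac1+ Gr1+), EryB (96 wells of erythroblasts, Ter119+ CD44+ FSC-A mid or high) and LSK (95 wells of progenitor and stem cells, Lin- Kit+ Sca1+). Each population is 1 sample of 1 animal, so no test was made. Lineage and tissue cannot be told apart, since T_Lymph was the only population from the thymus.

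T cell commitment takes place in the thymus, where progenitors from the marrow meet Notch ligands and switch on a set of DNA-binding proteins in sequence. TCF-1, encoded by Tcf7, is an HMG-box protein of the TCF/LEF family that acts early in this sequence, and the zinc finger protein BCL11B closes off the other fates at commitment. SATB1 organises chromatin and is abundant in thymocytes, TOX is an HMG-box protein needed for the CD4 lineage, and ETS1 is an ETS-domain factor of T cell, B cell and natural killer cell development.

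The wells of a population were summed, giving between 135808 (B_Lymph) and 834812 (LSK) UMIs on mouse genes, and 200396 in T_Lymph. The median well held 4347 UMIs in T_Lymph, 3028 in B_Lymph, 3880 in Grans, 6114 in EryB and 7959 in LSK. The 374 wells carried 374 distinct cell barcodes and shared none. All 7 T cell markers (Cd3d, Cd3e, Cd3g, Cd8a, Cd8b1, Cd4 and Lck) were detected in T_Lymph, at a summed 2675 CPM (UMIs of the gene scaled to a fixed total of UMIs on mouse genes), against 58.9 in B_Lymph, 42.1 in Grans, 28.5 in EryB and 38.3 in LSK. Among the marrow populations Cd3g was at 0 in B_Lymph, Grans and LSK, Cd8b1 in B_Lymph and EryB, Cd3e in Grans, and Lck in B_Lymph and Grans. Marker UMIs of other lineages also lay in the T_Lymph wells, where the 7 erythroid markers summed to 18399 CPM and the 8 granulocyte markers to 3648 CPM, and their part in the values was not tested. Some wells stood apart from their labels in fluorescence or in marker UMIs. The B_Lymph well A8 had a Gr1 fluorescence of 15209, held 519 UMIs of granulocyte markers and none of B cell markers, and held no UMI of the 5 factors. The B_Lymph well B2 had a CD3 fluorescence of 7905 but 36 UMIs of B cell markers, none of T cell markers and 2 of Satb1, and the T_Lymph well P4 held 426 UMIs in all and none of the T cell markers. Without A8 and B2, and without P4, the direction of each log2 ratio between populations given for the factors was kept.

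The start regions of the factors are shown because 3 of the 5 measured genes have an entry in the RefSeq promoter set (GRCm38.p6) and the members were high together in T_Lymph. Each window runs from 250 bases before to 50 bases after an annotated start. Capitals mark matches, on either strand, to 4 short motifs: CTTTGA (TCF/LEF core), GGAAGT (ETS core), TGTGGT (RUNX core) and CAGGTG (an E-box). The Tcf7 window lies at chr11:52282965-52283264 (minus strand), the Bcl11b window at chr12:108003365-108003664 (minus strand) and the Satb1 window at chr17:51833241-51833540 (minus strand).
Tcf7: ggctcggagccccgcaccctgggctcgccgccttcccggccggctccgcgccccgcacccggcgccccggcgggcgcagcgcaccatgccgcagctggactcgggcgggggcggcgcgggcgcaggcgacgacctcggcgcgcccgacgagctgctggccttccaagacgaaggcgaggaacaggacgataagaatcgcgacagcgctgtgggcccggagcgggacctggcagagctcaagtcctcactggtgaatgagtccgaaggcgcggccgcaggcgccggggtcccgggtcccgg
Bcl11b: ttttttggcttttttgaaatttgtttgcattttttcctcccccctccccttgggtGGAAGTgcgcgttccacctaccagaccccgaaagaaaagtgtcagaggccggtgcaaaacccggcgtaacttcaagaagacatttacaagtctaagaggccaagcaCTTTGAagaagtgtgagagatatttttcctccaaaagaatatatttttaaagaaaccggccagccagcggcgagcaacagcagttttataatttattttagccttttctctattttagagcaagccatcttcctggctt
Satb1: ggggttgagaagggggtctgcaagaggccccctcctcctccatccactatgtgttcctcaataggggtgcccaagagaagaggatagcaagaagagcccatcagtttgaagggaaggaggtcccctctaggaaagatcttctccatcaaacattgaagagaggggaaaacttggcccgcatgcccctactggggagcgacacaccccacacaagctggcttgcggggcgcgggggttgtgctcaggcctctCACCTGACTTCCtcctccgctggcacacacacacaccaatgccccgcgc
The Tcf7 window held none of the 4 motifs and had a GC content of 76.3%. It also holds an atg whose reading frame runs to the end of the window without a stop codon. Much of this window may therefore be coding sequence, and neither value is read as a promoter trait. The Bcl11b window (43% GC) held CTTTGA at position -89 and GGAAGT at position -195, counted from its start, which lies 188 bases downstream of the GENCODE start of the gene. The Satb1 window (59% GC) held the reverse complements of CAGGTG at position 1 and of GGAAGT at position 7, side by side and without overlap. Over all 32851 windows of this length, CTTTGA was found in 16%, GGAAGT in 23.8%, TGTGGT in 16.8% and CAGGTG in 20.2%. These matches describe letters in the windows, and the motifs were picked after the windows had been read. The 2 start sites of Tcf7 and 5 of Satb1 in the set were searched alike, and the other Tcf7 window, 419 bases downstream, held 2 GGAAGT matches and 1 CAGGTG match. Of the other Satb1 windows, those 643 and 21236 bases downstream held 1 GGAAGT match each. The window 6702 bases downstream held 1 GGAAGT and 1 CAGGTG match, and the one 21106 bases downstream held none of the 4 motifs.

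In the GENCODE M21 annotation of GRCm38, Tcf7 spans chr11:52252371-52283014 (minus strand), Bcl11b chr12:107910403-108003602 (minus strand), Satb1 chr17:51736187-51833290 (minus strand), Tox chr4:6686353-6991557 (minus strand) and Ets1 chr9:32636221-32757820 (plus strand). All 5 are protein-coding. Tox shares 260 exonic bases with the antisense transcript Gm11802, which had 1 UMI in T_Lymph, and the strand setting of the counts is not given in the sources used here. Tcf7 overlaps Gm26551 (14 UMIs in T_Lymph) and the antisense A630014C17Rik (1 UMI in T_Lymph) without a shared exonic base.

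Of the 5 measured factors, 4 (Tcf7, Bcl11b, Satb1 and Tox) were highest in the thymic T_Lymph cells by more than counting error. Tcf7 and Bcl11b had at most 8 UMIs in any other population, whereas Satb1 was also found in LSK, B_Lymph and Grans, and Tox also in LSK. Ets1 was close to the detection limit in all 5 populations. Intervals in parentheses are 95% exact intervals. They cover counting error only and contain neither the spread between cells nor that between animals. A 3′ UMI count is not scaled by length, so levels are compared between populations within a gene, not between genes.

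**Figure D1:**
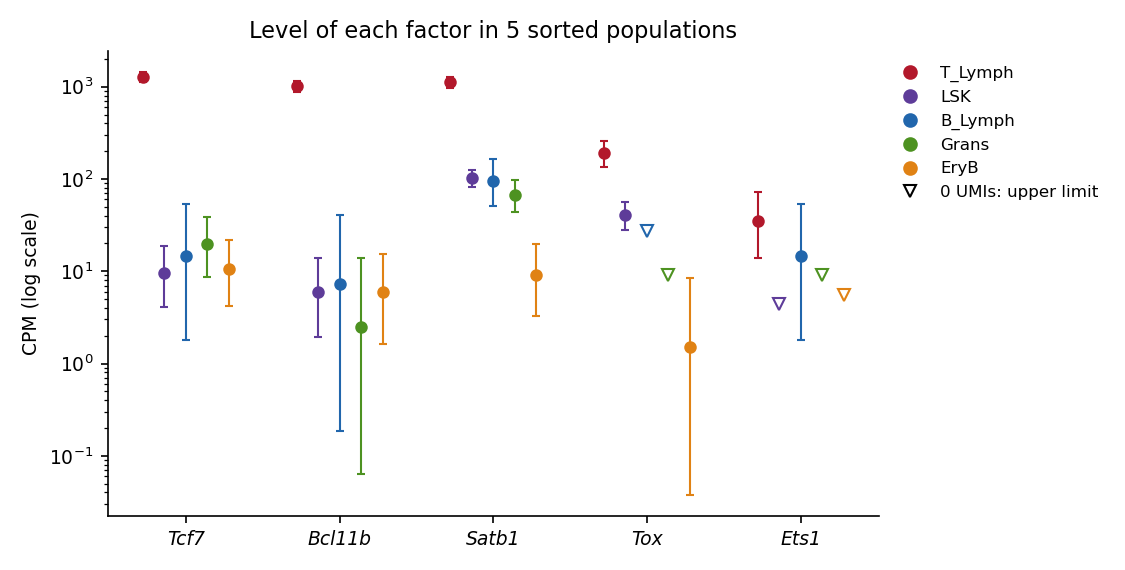
CPM on a log axis for the 5 measured factors in the 5 populations. Points are summed wells, bars are 95% exact Poisson intervals and open triangles are upper limits where no UMI was counted. T_Lymph lies at 1282 CPM for Tcf7, 1018 for Bcl11b and 1113 for Satb1, above the intervals of all other populations, while the Ets1 intervals of T_Lymph and B_Lymph overlap.

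Tcf7, the TCF/LEF factor, had 257 UMIs in T_Lymph, 2 in B_Lymph, 8 in Grans, 7 in EryB and 8 in LSK. The level was 1282 CPM (1130 to 1449) in T_Lymph and between 9.58 (LSK) and 19.8 (Grans) elsewhere. Only the step from T_Lymph to the next population, Grans, exceeded counting error, and no neighbouring pair in the order Grans, B_Lymph, EryB and LSK did. The log2 ratio of T_Lymph was 6.44 (4.58 to 9.50) over B_Lymph, 7.06 (6.06 to 8.29) over LSK, 6.02 (5.02 to 7.24) over Grans and 6.93 (5.87 to 8.26) over EryB. Among single T_Lymph wells, Tcf7 ran from 0 to 17 UMIs with a median of 6. It was found in 42 of 43 wells (97.7%, exact binomial interval 87.7 to 99.9%), and the exception was the shallow well P4. It was held by 2 of 44 B_Lymph, 8 of 96 Grans, 7 of 96 EryB and 8 of 95 LSK wells, each with 1 UMI.

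Bcl11b, the zinc finger factor of commitment, had 204 UMIs in T_Lymph and 1 in B_Lymph, 1 in Grans, 4 in EryB and 5 in LSK. This was 1018 CPM (883 to 1168) in T_Lymph and at most 7.36 elsewhere, and the 4 marrow populations did not differ beyond counting error between neighbours in the order. The log2 ratio of T_Lymph was 7.11 (4.62 to 12.42) over B_Lymph, 7.41 (6.16 to 9.05) over LSK, 8.68 (6.19 to 13.99) over Grans and 7.41 (6.03 to 9.30) over EryB. Those over B_Lymph and Grans rest on 1 UMI each. In T_Lymph 40 of 43 wells held Bcl11b, with a median of 4 and a highest value of 15 UMIs. The 3 wells with none (O7, P11 and P16) were not shallow, at 4232, 4825 and 6508 UMIs, and each held Tcf7 and Satb1.

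Satb1, the chromatin organiser, had 223 UMIs in T_Lymph, 85 in LSK, 27 in Grans, 13 in B_Lymph and 6 in EryB. Levels were 1113 CPM (972 to 1269) in T_Lymph, 102 (81.3 to 126) in LSK, 95.7 (51 to 164) in B_Lymph, 66.9 (44.1 to 97.4) in Grans and 9 (3.3 to 19.6) in EryB. LSK, B_Lymph and Grans thus formed a middle step whose neighbours did not differ beyond counting error (log2 ratio 0.09, -0.76 to 1.06, for LSK over B_Lymph and 0.52, -0.56 to 1.52, for B_Lymph over Grans). Grans lay above EryB by 2.89 (1.59 to 4.46). The log2 ratio of T_Lymph was 3.45 (3.08 to 3.83) over LSK, 3.54 (2.74 to 4.47) over B_Lymph, 4.06 (3.48 to 4.69) over Grans and 6.95 (5.81 to 8.41) over EryB. It was found in 40 of 43 T_Lymph wells (median 5, highest 16 UMIs), 45 of 95 LSK wells, 11 of 44 B_Lymph wells, 23 of 96 Grans wells and 6 of 96 EryB wells. No marrow well outside LSK held more than 2 Satb1 UMIs, and in LSK the highest well held 6.

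Tox, the HMG-box factor of the CD4 lineage, had 38 UMIs in T_Lymph, 34 in LSK, 1 in EryB and none in B_Lymph or Grans. Levels were 190 CPM (134 to 260) in T_Lymph, 40.7 (28.2 to 56.9) in LSK and 1.5 (0.038 to 8.36) in EryB. Both steps exceeded counting error, with a log2 ratio of 2.22 (1.51 to 2.93) for T_Lymph over LSK and 4.76 (2.19 to 10.11) for LSK over EryB. Against a floor of 3 UMIs, and with the other count taken as observed, T_Lymph was at least 8.58-fold higher than B_Lymph and at least 25.5-fold higher than Grans, and LSK was at least 1.84-fold higher than B_Lymph and at least 5.48-fold higher than Grans. With the error of both counts, the exact lower limits were 6.65-fold and 19.8-fold for T_Lymph and 1.42-fold and 4.22-fold for LSK. In 0 of 44 B_Lymph wells and 0 of 96 Grans wells the gene was seen, which allows shares of wells with a UMI of up to 6.82% and 3.12% at 3 counts of the total (exact binomial upper limits 8.04% and 3.77%). Tox was found in 25 of 43 T_Lymph wells (median 1, highest 3 UMIs) and in 26 of 95 LSK wells (highest 4 UMIs).

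Ets1 had 7 UMIs in T_Lymph, 2 in B_Lymph and none in Grans, EryB or LSK. The level of 34.9 CPM (14 to 72) in T_Lymph did not differ beyond counting error from the 14.7 CPM (1.78 to 53.2) in B_Lymph, with a log2 ratio of 1.25 (-1.15 to 4.55). With the 7 UMIs taken as counted and the other population at the floor of 3 UMIs, T_Lymph was at least 9.72-fold higher than LSK, at least 7.76-fold higher than EryB and at least 4.7-fold higher than Grans. With the error of both counts, the exact lower limits were 6-fold, 4.8-fold and 2.9-fold. The 7 UMIs lay in 7 T_Lymph wells, 1 in each.

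The depth of a well affects whether a UMI is seen, so each well was also thinned to 1000 UMIs, with 1 T_Lymph, 1 B_Lymph, 2 Grans and 1 EryB well left out as shallower. The share of T_Lymph wells expected to hold a UMI was then 71.7% for Tcf7, 59.8% for Bcl11b, 63.5% for Satb1, 19.1% for Tox and 3.27% for Ets1. In erythroblasts, which serve as the background, it was 1.15% for Tcf7, 0.969% for Bcl11b, 1.15% for Satb1 and 0.231% for Tox. Satb1 stood above that background at equal depth in B_Lymph (11.2%), LSK (9.9%) and Grans (6.84%), and Tox did in LSK (4.25%). By point value Tcf7 did too in B_Lymph (2.24%) and Grans (2.22%), on 2 and 8 UMIs. EryB had the lowest summed T cell markers, at 28.5 CPM against 58.9 in B_Lymph and 42.1 in Grans, so this background may be too low for the other populations. Tcf7 in LSK (1.1%) was at the erythroblast level and Bcl11b in LSK (0.623%) below it. No expression of Tcf7 or Bcl11b in the marrow populations is read from these few UMIs. Their origin was not tested. No order is read from the shares of LSK and B_Lymph for Satb1, or of Grans and B_Lymph for Tcf7, which did not differ beyond counting error by CPM.

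Ratios were read against the whole table. A gene was counted as higher or lower when its CPM differed by at least 4-fold, among genes with at least 20 UMIs in both populations together and with sums under 3 UMIs set to 3. T_Lymph was at least 4-fold higher for 6.92% of 3064 genes against B_Lymph, 2.96% of 7565 against LSK, 10.2% of 4394 against Grans and 16.3% of 5111 against EryB. In the opposite direction the shares were 4.21%, 3.21%, 10.5% and 10.0%. Tcf7, Bcl11b, Satb1 and Tox were higher in T_Lymph in each of the 4 comparisons, 4 of the 4 that passed the UMI minimum, and Ets1 did not pass it in any. Tcf7 and Bcl11b in each comparison, Tox outside LSK, and Satb1 against B_Lymph and EryB passed the minimum through their T_Lymph UMIs alone, so that these calls could hardly come out otherwise. The count became 5 against LSK, Grans and EryB with a minimum of 5 UMIs, as Ets1 entered, 3 against B_Lymph, Grans and EryB with a minimum of 50 UMIs, and 3 against LSK at 8-fold. The median log2 ratio over all genes passing the minimum was 0.27 over B_Lymph, -0.26 over LSK, 0.48 over Grans and 0.29 over EryB. Scaling by TMM factors moved these medians by -0.08, 0.02, -0.75 and -0.84, and scaling by scran size factors by -0.17, 0.15, -0.69 and -0.83. The share of 4-fold calls that were higher in T_Lymph was 49.3% against Grans by CPM and 23.8% by TMM or 30.2% by scran, and against EryB 61.9%, 35.9% and 31.4%. Under both scalings every factor kept its direction in each comparison where both populations had UMIs.

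**Figure D2:**
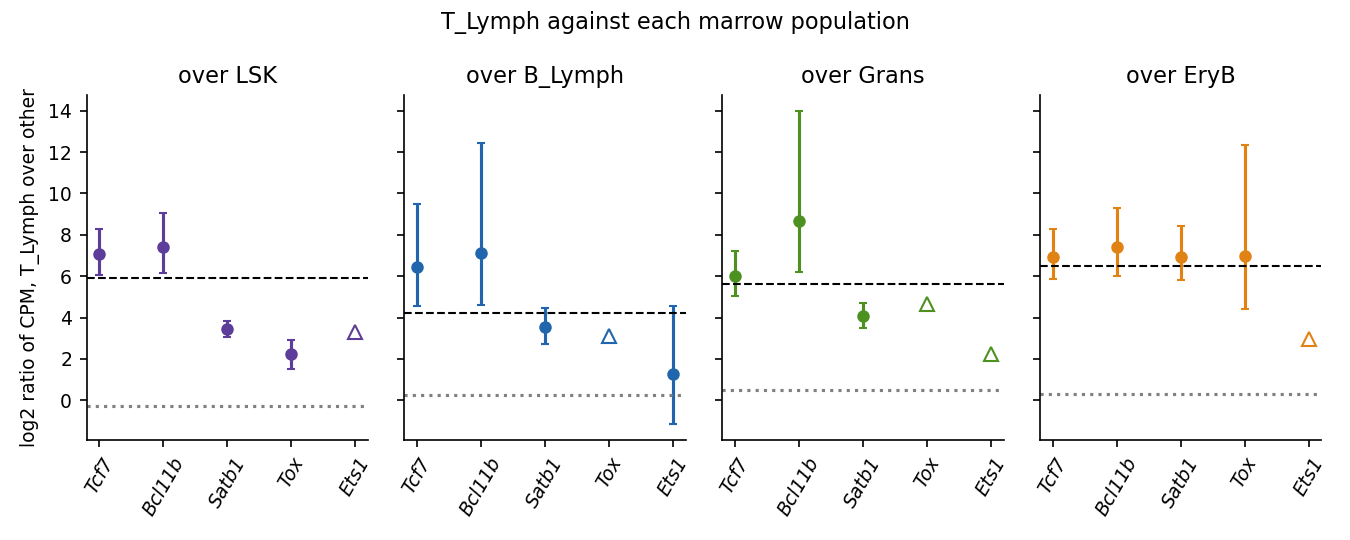
Log2 ratio of CPM, T_Lymph over each marrow population, for the 5 measured factors. Points have 95% exact conditional binomial intervals, open triangles are lower bounds against a floor of 3 UMIs, the dotted line is the median over all genes passing the minimum and the dashed line the median of the T cell receptor and thymocyte genes. Satb1 and Tox lie at 3.45 and 2.22 over LSK, below the dashed line at 5.92, and Tcf7 and Bcl11b above it at 7.06 and 7.41.

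Some UMIs of any abundant gene may be found in wells of cells that do not use it. The UMIs of each factor outside the thymus were therefore set beside those of the T cell markers. The 536 marker UMIs in T_Lymph served as a yardstick. Per 100 UMIs of the markers in T_Lymph, the summed markers had 5.97 in LSK, 1.49 in B_Lymph, 3.17 in Grans and 3.54 in EryB. These counts are not scaled to the total of a population, so genes are compared within a population and not between populations. By CPM the summed markers were at 38.3 in LSK and 58.9 in B_Lymph. Tcf7 and Bcl11b stayed near this yardstick in LSK, at 3.11 and 2.45 per 100 (0.521 times the markers, 0.205 to 1.18, and 0.411 times, 0.123 to 1.08). Satb1 in LSK reached 38.1 per 100, 6.38 times the markers (4.06 to 10.2), and Tox 89.5 per 100, 15 times (7.99 to 27.9). Satb1 was also above the summed markers in Grans (12.1 per 100, 3.82 times, 1.96 to 7.61) and in B_Lymph (5.83 per 100, 3.91 times, 1.47 to 11). In EryB the 4 detected factors lay between 1.96 and 2.72 per 100, 0.553 to 0.768 times the markers, with every interval including 1. The markers were not uniform. Cd4 had 32.1 per 100 in LSK, 20.8 in EryB, 15.1 in Grans and 7.55 in B_Lymph, and Lck, with 9 UMIs in T_Lymph, had 33.3 in LSK. Cd3g had none in LSK, Grans or B_Lymph and 1.72 in EryB. Against Cd4 alone, Satb1 was lower in Grans and in B_Lymph, so its place above the markers there holds for their sum and not for each marker. Outside the 7 markers, the T cell receptor genes Trbc2 and Trac had 10.3 and 3.4 per 100 in Grans, beside 12.1 for Satb1. They had 11.6 and 5.28 per 100 in LSK. In LSK, Tox and Satb1 were above each of the 7 markers by point value, and no interval against a single marker was calculated. Satb1 (38.1) was close to Lck (33.3) and Cd4 (32.1) there, so it is not read as separate from these markers. Cd4 gave 17 of the 32 marker UMIs in LSK.

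**Figure D3:**
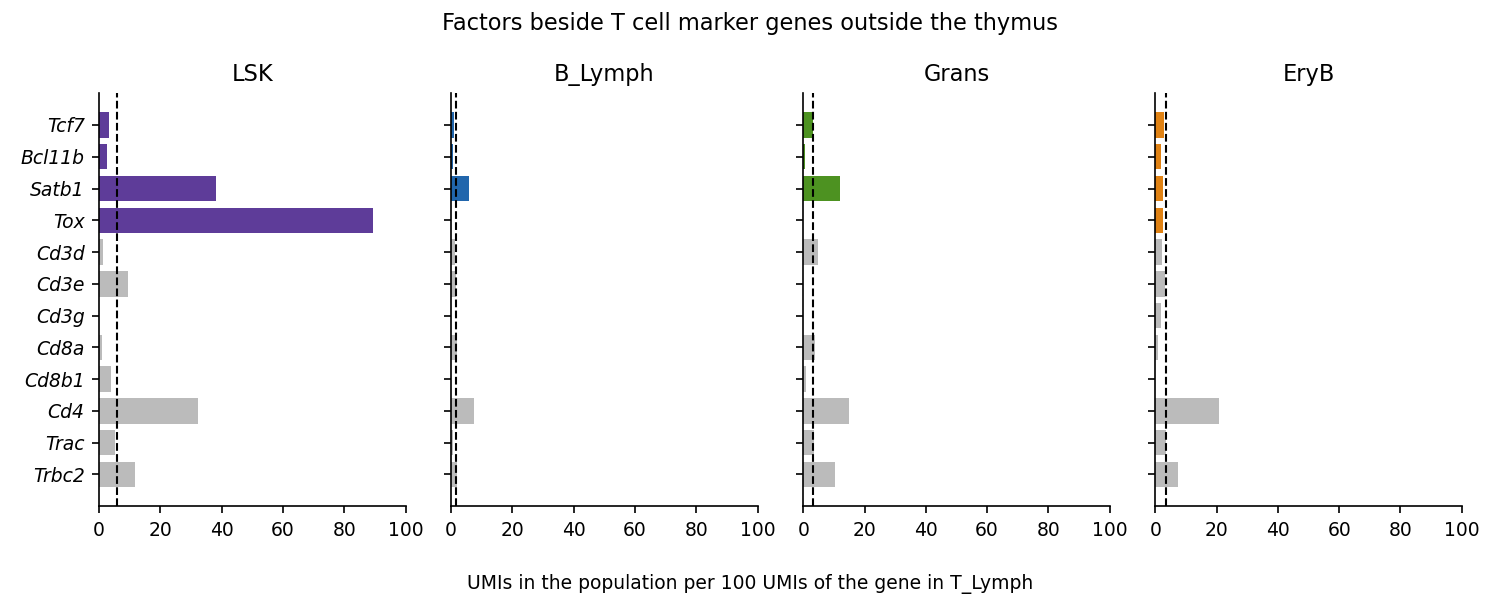
UMIs found in each marrow population per 100 UMIs of the same gene in T_Lymph. Coloured bars are the factors, grey bars T cell marker and receptor genes, and the dashed line the 7 markers summed (Lck, with 9 UMIs in T_Lymph, has no bar of its own). Tox (89.5) and Satb1 (38.1) are the longest bars in LSK, Satb1 (12.1) exceeds the line in Grans at 3.17, and no factor exceeds it in EryB.

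Within T_Lymph the factors were found together in the same cells. Of 43 wells, 1 held a UMI of 1 factor (well P4), 17 of 3, 23 of 4 and 2 of all 5. Tcf7, Bcl11b and Satb1 were all found in 37 of 43 wells, and in 0 of 44 B_Lymph, 0 of 95 LSK, 0 of 96 Grans and 0 of 96 EryB wells. At least 2 factors were found in 42 T_Lymph, 16 LSK, 3 Grans, 2 B_Lymph and 1 EryB wells. In LSK, Satb1 and Tox were found together in 11 wells, Satb1 alone of the pair in 34 and Tox alone in 15. All 5 LSK wells with a Bcl11b UMI also held Satb1 and 3 of them held Tox, while none of the 8 LSK wells with Tcf7 held Tox or Bcl11b. Sharing a well rises with its depth, so these counts are given as a description.

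**Figure D4:**
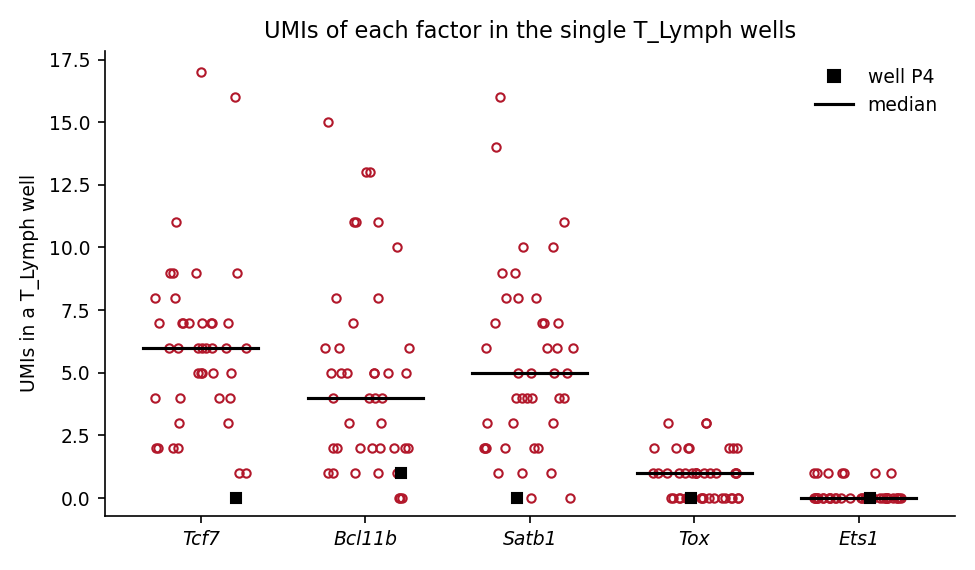
UMIs of each factor in the 43 single T_Lymph wells (points, spread sideways at random; black square, the shallow well P4; line, median). Tcf7, Satb1 and Bcl11b have medians of 6, 5 and 4 UMIs and reach 17, 16 and 15, and the medians are 1 for Tox and 0 for Ets1.

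Across the 43 T_Lymph wells, the Spearman correlation of CPM was 0.51 for Tcf7 with Satb1 and 0.40 for Satb1 with Tox, against 0.14 for Tcf7 with Bcl11b and 0.14 for Bcl11b with Satb1. On UMIs instead of CPM the first fell to 0.26 and the second to 0.33. The CPM of Tcf7, Bcl11b and Satb1 correlated with the UMIs of the well at -0.38, -0.43 and -0.40, and that of Tox at -0.16, so pairs among the first 3 also share the depth of the well. Wells of 1 animal are not replicates, and no p is given.

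The wells were also divided by plate row and by the fluorescence recorded at sorting. In T_Lymph, the log2 ratio of row O over row P was 0.37 (-0.00 to 0.74) for Tcf7, 0.40 (-0.02 to 0.83) for Bcl11b, 0.30 (-0.09 to 0.71) for Satb1, -0.41 (-1.42 to 0.58) for Tox and -1.58 (-4.98 to 1.03) for Ets1. No factor differed between the rows beyond counting error, and the T cell markers did by 0.26 (0.01 to 0.52). In wells above the median CD3 fluorescence, Satb1 was at 1343 CPM, against 907 in the other wells, a log2 ratio of 0.57 (0.17 to 0.96). Over the same 43 wells, the Spearman correlation of Satb1 with CD3 fluorescence was 0.14 for CPM and 0.11 for UMIs. Tcf7 (0.04, -0.33 to 0.40) and Bcl11b (-0.21, -0.62 to 0.20) did not differ beyond counting error, and the summed T cell markers were lower in the wells of high CD3 (-0.41, -0.66 to -0.15). In wells above the median forward scatter, a measure of cell size, Bcl11b was at 769 CPM against 1287 (-0.74, -1.17 to -0.33) and the markers were lower by 0.53 on the log2 scale (-0.79 to -0.28). The larger cells had a median of 4818 UMIs and the smaller ones 3920. These intervals leave out the spread between cells, which was wide (Satb1 ran from 0 to 16 UMIs a well).

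In LSK, the log2 ratio between wells of high and low Sca-1 was 0.13 (-0.52 to 0.78) for Satb1 and 0.68 (-0.38 to 1.77) for Tox. Between wells of high and low c-Kit it was -0.64 (-1.31 to 0.02) and -0.50 (-1.59 to 0.56), and between large and small cells 0.12 (-0.52 to 0.77) and -0.39 (-1.47 to 0.67). None exceeded counting error. Over the 4 plate rows of LSK, Satb1 was at 151, 88.2, 112 and 57.4 CPM and Tox at 25.1, 63.7, 27 and 47.8 CPM, and both were detected in each row. In B_Lymph, Satb1 was at 84.9 CPM in row A and 107 in row B (log2 ratio -0.34, -2.19 to 1.46).

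A further 5 transcripts, all of the annotation class TEC, which marks models still awaiting experimental support, lie within the span of Satb1 on its strand. They were listed after the table had been examined. Of these, 4 share no exonic base with Satb1, and Gm36931 shares 156. Their UMIs in T_Lymph were 151 for C230085N15Rik, 125 for 5830444F18Rik, 85 for Gm37248, 45 for E430014B02Rik and 32 for Gm36931. Summed, they had 438 UMIs in T_Lymph (2186 CPM, 1986 to 2400), 131 in LSK (157 CPM, 131 to 186), 29 in Grans (71.9 CPM, 48.1 to 103), 8 in B_Lymph (58.9 CPM, 25.4 to 116) and 3 in EryB (4.5 CPM, 0.928 to 13.1). The populations with Satb1 thus also held these transcripts, T_Lymph most and EryB least. Of the 45 LSK wells with Satb1, 31 held 1 or more of the 5 transcripts, as did 19 of the 50 LSK wells without Satb1. In T_Lymph 39 wells held both, 1 held Satb1 alone and 2 held the transcripts alone. Whether these UMIs come from Satb1 pre-mRNA or from transcripts of their own was not tested.

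**Figure D5:**
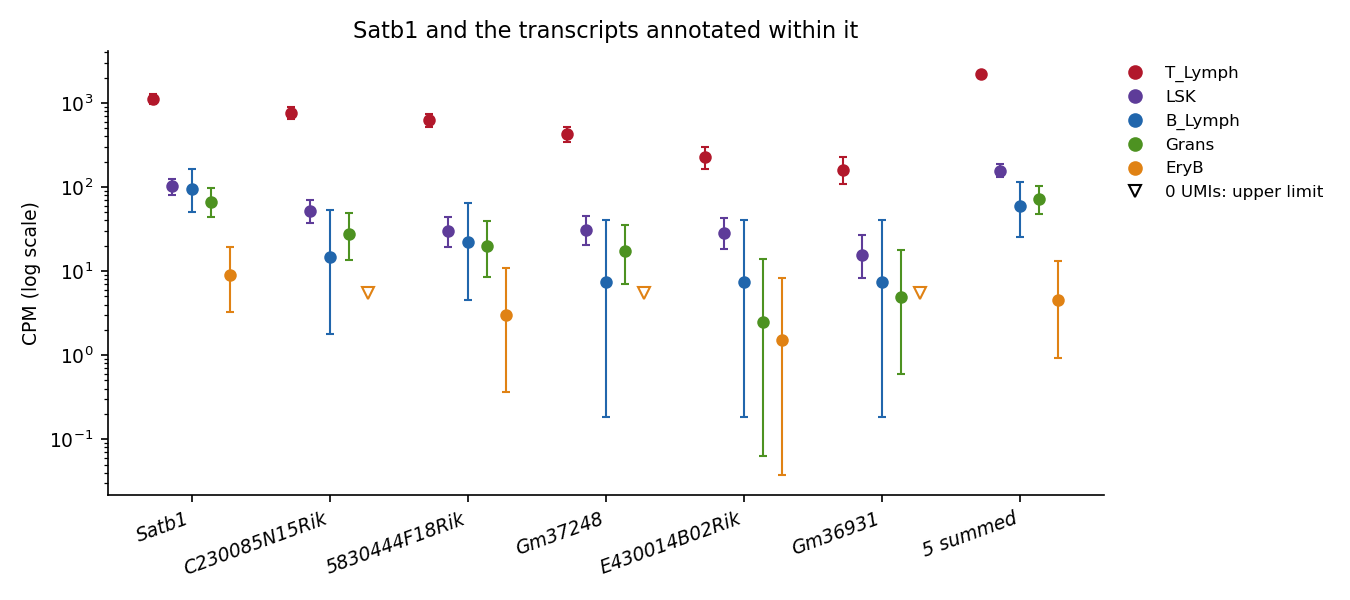
CPM on a log axis of Satb1, of the 5 transcripts annotated within its span, and of their sum, in the 5 populations, with 95% exact Poisson intervals and open triangles as upper limits where no UMI was counted. The summed transcripts lie at 2186 CPM in T_Lymph, 157 in LSK, 71.9 in Grans, 58.9 in B_Lymph and 4.5 in EryB.

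For each factor, the genes most like it were found among 6313 genes with at least 50 UMIs in all. Distance was the fraction of the shares of summed CPM in the 5 populations that did not overlap between a gene and the factor. Tcf7, with 95.9% of its CPM in T_Lymph, was nearest to Trac (distance 0.008) and Trbc1 (0.010), constant regions of the T cell receptor chains, and to Cd3d (0.013), a chain of the CD3 complex. Bcl11b, with 97.9% in T_Lymph, was nearest to the adaptor gene Skap1 (0.010), the coreceptor chain Cd8b1 (0.013) and Cd3g (0.016), and lay 0.020 from Tcf7. Satb1 had 80.3% in T_Lymph, 7.34% in LSK, 6.91% in B_Lymph and 4.83% in Grans. Its nearest genes were Tecpr1 (0.017), Ifi206 (0.051) and the GTPase gene Gimap4 (0.057). Tox, with 81.8% in T_Lymph and 17.6% in LSK, was nearest to E430014B02Rik (0.068), which lies within Satb1, to the cysteine protease gene Ctsw (0.070) and to Gata3 (0.090). The nearest genes to Ets1 were Scml4 (0.103), Gbp9 (0.104) and Evl (0.112), and its pattern rests on 9 UMIs. These are likenesses over 5 samples.

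Related genes were grouped into lists and given as counts of those at least 4-fold higher or lower in T_Lymph. Beside these counts stand the shares of all genes passing the minimum. Higher in T_Lymph were 6.92% against B_Lymph, 2.96% against LSK, 10.2% against Grans and 16.3% against EryB. Lower were 4.21%, 3.21%, 10.5% and 10.0%. Of the partner regulators of the T lineage, 14 of 15 were measured. Against LSK, 3 of 11 that passed the minimum were higher and 1 lower. Gata3, which drives T cell commitment and the CD4 lineage, had 38 UMIs in T_Lymph (190 CPM), 15 in LSK (18 CPM), 1 in EryB and none in B_Lymph or Grans, and its log2 ratio over LSK was 3.40 (2.50 to 4.37). Egr1, an immediate early factor induced by receptor signals, had 41 UMIs in 7 T_Lymph wells, with a log2 ratio of 4.42 (3.30 to 5.72) over LSK. Zbtb7b, the factor of CD4 commitment, lay at 130 CPM in T_Lymph and 19.2 in LSK (2.76, 1.81 to 3.76), but at 126 in Grans. Myb, which keeps progenitors dividing, was lower in T_Lymph, at 105 CPM against 656 in LSK (-2.65, -3.35 to -2.02) and 891 in B_Lymph (-3.09, -3.83 to -2.41).

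Against B_Lymph, 2 of 12 partner regulators were higher (Gata3 and Egr1) and 2 lower (Tcf3 and Myb). Tcf3, the E protein of B cell specification, was at 74.9 CPM in T_Lymph and 501 in B_Lymph (-2.74, -3.66 to -1.92). Against Grans 4 of 11 were higher (Gata3, Tcf12, Sox4 and Egr1) and against EryB 6 of 11 (Gata3, Cbfb, Ikzf1, Zbtb7b, Sox4 and Egr1), and none was lower. Ikzf1, the gene of Ikaros, was at 579 CPM in T_Lymph and 538 in B_Lymph, and Runx1 at 125 and 88.4 CPM, and neither differed beyond counting error. The median log2 ratio of the list was -0.13 over B_Lymph, 0.99 over LSK, 1.32 over Grans and 2.48 over EryB.

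Of the Wnt pathway and TCF/LEF cofactor genes, 0 of 8 were higher or lower against B_Lymph, 0 of 11 against LSK and 0 of 8 against Grans. Against EryB 3 of 8 were higher (Axin1, Tle3 and Tle4). The partner of TCF-1 in Wnt signalling, Ctnnb1 (β-catenin), was at 215 CPM in T_Lymph, 147 in B_Lymph, 151 in Grans, 126 in EryB and 291 in LSK. The Groucho corepressors Tle3 and Tle4 were at 180 and 150 CPM in T_Lymph and at 73.1 and 69.5 in LSK (log2 ratios 1.30, 0.66 to 1.92, and 1.11, 0.42 to 1.77). Axin2, a target of Wnt signals, had 6 UMIs, all in T_Lymph. The exact lower limit of its ratio was 4.9-fold over LSK, 3.92-fold over EryB and 2.37-fold over Grans. Over B_Lymph it was 0.798-fold, so T_Lymph and B_Lymph did not differ beyond counting error.

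Of the chromatin cofactors of BCL11B and SATB1, 9 of 10 were measured and all 9 passed the minimum. None was higher in T_Lymph than in B_Lymph, LSK or EryB, and 1 (Mta1) was higher than in Grans (2.07, 0.98 to 3.26). Of all genes, 10.2% were higher than in Grans, so 1 of 9 is not read as a trait of this list. Smarca4, the ATPase of BAF complexes, was lower in T_Lymph than in B_Lymph, at 220 CPM against 1406 (-2.68, -3.19 to -2.20). Chd4, the ATPase of the NuRD complex, was at 334 CPM in T_Lymph, 272 in B_Lymph and 395 in LSK. Their medians were 0.28, -0.24, 0.95 and 0.62 over B_Lymph, LSK, Grans and EryB, beside 0.27, -0.26, 0.48 and 0.29 for all genes.

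Among 9 measured relatives of the factors (such as Bcl11a, Fli1 and Erg), 0 of 1 was higher in T_Lymph than in B_Lymph or Grans and 0 of 5 than in LSK. Fli1, an ETS-domain relative of Ets1, lay at 99.8 CPM in T_Lymph, 110 in B_Lymph, 139 in Grans and 109 in LSK but at 6 in EryB. It was the 1 relative that passed the minimum against EryB, and it was higher in T_Lymph (4.06, 2.48 to 6.06). Bcl11a, the relative of Bcl11b used by B cells and progenitors, had 46 UMIs in LSK, 3 in B_Lymph, 2 in EryB and none in T_Lymph or Grans. Of the Notch pathway list, 6 of 10 genes were measured, of which 1 each passed the minimum against B_Lymph and LSK and none against Grans and EryB. Il2ra was the one against B_Lymph, with 2 UMIs in T_Lymph and 34 in B_Lymph (-4.65, -7.75 to -2.68).

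The T cell receptor and thymocyte genes were higher in T_Lymph for 16 of 18 genes against B_Lymph, 16 of 18 against LSK, 17 of 18 against Grans and 18 of 18 against EryB. Their median log2 ratios were 4.21, 5.92, 5.60 and 6.51. The recombination genes Rag1 and Dntt went the other way in 1 comparison each. Rag1 had no UMI in T_Lymph and 89 in B_Lymph, and Dntt was at 54.9 CPM in T_Lymph and 389 in LSK (-2.83, -3.84 to -1.97). Dntt was higher in T_Lymph than in EryB (2.02, 0.62 to 3.47). It did not differ beyond counting error from B_Lymph (0.58, -1.07 to 2.45) or Grans (0.56, -0.70 to 1.78). The lists were drawn up with results of these data known, so their counts describe these cells and are no independent evidence of direction.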

How the data were processed

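Cells of 1 mouse were sorted singly into a 384-well plate and profiled by CEL-seq2. The authors processed the reads with scPipe (barcodes trimmed, reads aligned and assigned to exons, wells demultiplexed by designed barcodes, UMIs collapsed) and deposited raw UMI counts per gene and well. For genome build, annotation, aligner version and strand setting, the value is not given in the sources used here, and the labels give contradictory positions of barcode and UMI in read 1. Of the columns, 374 matched a well in the labels and 9 matched none and were not used. ERCC rows (74) were left out of all totals. Symbols were found for 19755 of 19829 mouse gene IDs.

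UMIs were summed per population and scaled to CPM. Each population is 1 sample from 1 animal, so values have 95% exact Poisson, binomial or conditional binomial intervals for counting error and no p-value. No doublet caller was run and no well was filtered out. A call needed a 4-fold difference and at least 20 UMIs in both populations together, with a floor of 3 UMIs. Wells were thinned to 1000 UMIs by the exact hypergeometric share. Named genes were the 6 factors, the fixed lists and the 3 nearest genes of each factor. Alternatives used TMM factors (edgeR 4.0.16) and scran 1.30.0 size factors in R 4.3.3, other minimums, folds and wells, and scripts ran on Python 3.11.15 and SciPy 1.17.1 and were tested on simulated data. The members and lists were chosen with earlier results of these data known. The motifs, the transcripts within Satb1, the splits by Sca-1, c-Kit and forward scatter, the marker yardstick and the alternatives without well P4 and without wells lacking their own markers were added after the data were seen. The values of 1 listed gene are not reported here.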

Additional observations from a re-analysis of the deposited data

How the results depend on the processing

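Log2 ratios of T_Lymph over the other populations kept their direction in 161 of 161 alternatives and stayed within the counting interval in 157, and 4 further alternatives gave no value because a population was at 0. With scran size factors the ratio was 5.42 for Bcl11b and 5.47 for Satb1 over EryB, and 3.23 for Satb1 over Grans, which TMM factors put at 3.31. Over Grans and EryB these scalings moved the median of all genes by -0.69 to -0.84 as well. The T_Lymph levels of Tcf7, Bcl11b and Satb1 became 1642, 1303 and 1424 CPM without the most abundant genes in the total, and 1022, 811 and 886 with TMM factors. In plate row P alone Tcf7 was at 1108 and Bcl11b at 867 CPM. Thinning T_Lymph wells to 2000 UMIs gave shares with a UMI of 90.3% for Tcf7, 77.6% for Bcl11b, 81.6% for Satb1 and 34.6% for Tox, and no thinning gave 97.7%, 93%, 93% and 58.1%, with 16.3% for Ets1, since deeper wells show more. With a minimum of 5 UMIs more genes entered. Higher in T_Lymph than LSK were then 1 of 6 relatives, 6 of 14 partner regulators, 1 of 4 Notch genes and 1 of 14 Wnt cofactors, higher than Grans 1 of 4, 6 of 13, 1 of 3 and 2 of 13, and higher than EryB 2 of 3, 8 of 13, 1 of 2 and 5 of 11. The counts of these lists over B_Lymph were as before. At the minimum of 5 UMIs the share of all genes that were higher was not calculated. These list counts therefore have no background share beside them and are not read as traits of the lists. Over all genes, the counts higher in T_Lymph (212 over B_Lymph, 224 over LSK, 450 over Grans, 832 over EryB) became 221, 618, 1281 and 2334 with a minimum of 5 UMIs, 79, 112, 160 and 291 with one of 50, 616, 694, 1500 and 1628 at 2-fold, and 65, 110, 180 and 508 at 8-fold. The alternatives without well P4 and without wells lacking their own markers, chosen after seeing the data, kept every ratio within its interval. Values of Ets1, and of Tcf7 and Bcl11b outside the thymus, rest on at most 8 UMIs a population, and 1 animal gives no spread between animals. No paired analysis was possible because each population is 1 sample and no test was made.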
